A study of Arabidopsis thaliana with 6 samples.

Results

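Small nucleolar RNA (snoRNA) genes were followed through RNA immunoprecipitation sequencing (RIP-seq) libraries of the nuclear speckle RNA binding protein NSRa in Arabidopsis thaliana seedlings. The members are the genes typed snoRNA in the TAIR10.1 annotation that were above 0 in at least 2 of the 6 libraries. This rule kept 205 genes, out of 249 snoRNA genes listed in the table and 39351 features in all. Members were thus chosen by their measured values, through whether each library was above 0, so the numbers of libraries with reads are given here as a description. Of the 44 listed snoRNA genes left out, 21 were at 0 in every library and 23 were above 0 in 1 library, mostly in Input. Just inside the rule, 85 members were above 0 in exactly 2 libraries, and for 76 of these both were Input libraries, with a median of 12 Input reads over the pair.

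All 3 groups came from plants of the nsra mutant that expressed NSRa with an HA epitope tag under the NSRa promoter (pNSRa:NSRa-HA). All had received the synthetic auxin NAA for 24 h and had been irradiated with UV light at 0.4 J/cm2, which crosslinks proteins to bound RNA. The labels give the NAA dose as 1 µM and as 100 nM, and the seedling age as 10, 14 and 15 days. RIP (n = 2) is the RNA recovered with an anti-HA antibody, Mock (n = 2) is the RNA recovered with mouse IgG, and Input (n = 2) is RNA of the lysate. Whether replicates came from separate cultures was not stated, so p-values measure the spread between these libraries.

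Small nucleolar RNAs guide the modification and processing of ribosomal RNA in the nucleolus. Box C/D snoRNAs carry the C box (TGATGA in the gene) near the 5′ end and the D box (CTGA) near the 3′ end, bind fibrillarin and direct ribose methylation, while box H/ACA snoRNAs end shortly after an ACA and direct pseudouridylation. U3 is a larger C/D-type RNA that acts in the early cleavages of the ribosomal RNA precursor. In plants many snoRNA genes lie in polycistronic clusters, from which several snoRNAs are cut out of 1 transcript, and others lie within introns of protein-coding genes.

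The libraries differed strongly in depth. The RIP libraries held 1599140 and 977231 reads, the Mock libraries 197923 and 154149, and the Input libraries 27494985 and 25274637. Scaled to library size as CPM (reads of a gene over all reads, times 1000000), 1 read counted for 0.625 and 1.02 CPM in RIP. It counted for 5.05 and 6.49 CPM in Mock and for 0.0364 and 0.0396 CPM in Input. The tagged gene itself, NSRa (AT1G76940), was listed at 144.9 and 105.3 FPKM (reads scaled to library size and exon length) in RIP, 181 and 60.3 in Mock, and 11.4 and 12.1 in Input. CAB1, a light-harvesting chlorophyll protein gene of green tissue, had 12560 and 12239 FPKM in the Input libraries. A share of reads says how a library was composed, and no value here gives the amount of RNA that a pull-down recovered.

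By sequence, 88 members were C/D-like (median annotated length 87 bases), with TGATGA beginning in the first 20 bases and CTGA in the last 20. Another 46 were H/ACA-like (median 140 bases), with ACA in the last 10 bases of a locus of at least 100 bases. U3B and U3D are the U3 genes, and 69 members met neither letter rule and are called unclassed. By position, 115 members stood in free clusters of snoRNA genes with gaps of at most 500 bases and 18 stood alone. Another 44 lay in an intron of a host gene on the same strand and 28 overlapped a host exon. The letters are a coarse guide: the annotation describes SNOR108 as box C/D, whereas the letter rule put it with the H/ACA-like genes.

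The genes on which the comparisons turn are shown first, 5′ to 3′ and in TAIR10.1. U3B (chr5:21888228-21888524, plus strand) and U3D (chr5:21945377-21945670, minus strand) are printed from an element inside each annotated locus to the end of their shared stretch. Capitals mark CCCACATCG, the upstream sequence element of plant U3 and spliceosomal RNA genes, so that both annotated loci include promoter bases.
U3B: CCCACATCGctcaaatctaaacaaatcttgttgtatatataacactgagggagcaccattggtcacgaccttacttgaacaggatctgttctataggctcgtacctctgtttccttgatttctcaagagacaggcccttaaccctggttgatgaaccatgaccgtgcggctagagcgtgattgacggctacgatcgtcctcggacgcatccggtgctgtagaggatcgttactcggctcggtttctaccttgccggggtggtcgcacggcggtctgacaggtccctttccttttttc
U3D: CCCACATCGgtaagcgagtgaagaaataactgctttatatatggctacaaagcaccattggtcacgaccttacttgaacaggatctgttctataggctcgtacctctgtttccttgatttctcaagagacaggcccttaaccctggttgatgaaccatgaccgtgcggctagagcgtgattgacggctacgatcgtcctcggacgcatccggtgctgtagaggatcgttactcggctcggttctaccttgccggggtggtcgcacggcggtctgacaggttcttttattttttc

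The U3 loci aligned over 246 columns with 241 identical bases (98.0%), although U3B is annotated over 702 bases and U3D over 361. Reads of the mature RNA therefore cannot be divided reliably between them.

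C/D-like genes found in RIP are shown with capitals on the C box and D box letters, followed by AtU31a and AtsnoR4a, neighbours in a free cluster without a read in any RIP or Mock library. AtsnoR28-1a lies at chr5:5674579-5674672, minus strand, AtsnoR29-1 at chr5:20795723-20795828, plus strand and AtsnoR6-3 at chr4:1445731-1445846, minus strand. SNOR105 lies at chr1:10151668-10151774, minus strand, AtU31a at chr1:10300351-10300453, plus strand and AtsnoR4a at chr1:10300489-10300565, plus strand.
AtsnoR28-1a: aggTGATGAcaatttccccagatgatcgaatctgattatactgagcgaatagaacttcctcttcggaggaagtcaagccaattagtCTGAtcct
AtsnoR29-1: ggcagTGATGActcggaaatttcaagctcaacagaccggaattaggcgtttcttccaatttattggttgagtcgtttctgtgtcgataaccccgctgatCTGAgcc
AtsnoR6-3: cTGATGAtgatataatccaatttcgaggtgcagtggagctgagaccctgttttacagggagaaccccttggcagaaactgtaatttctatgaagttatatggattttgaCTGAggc
SNOR105: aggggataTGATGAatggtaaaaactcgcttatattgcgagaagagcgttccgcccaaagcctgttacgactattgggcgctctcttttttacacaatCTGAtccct
AtU31a: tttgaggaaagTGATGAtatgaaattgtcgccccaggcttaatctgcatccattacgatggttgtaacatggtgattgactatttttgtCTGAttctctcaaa
AtsnoR4a: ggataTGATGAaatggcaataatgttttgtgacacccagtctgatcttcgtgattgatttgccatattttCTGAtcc

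H/ACA-like genes are shown with the ACA nearest the 3′ end in capitals. AtsnoR109 (chr4:11795167-11795267, plus strand), AtsnoR79 (chr1:11435420-11435573, minus strand) and AtsnoR79b (chr1:11435788-11435981, minus strand) were abundant in both kinds of pull-down, whereas AtsnoR5b (chr1:10309265-10309404, plus strand) was among the most abundant snoRNA genes in Input.
AtsnoR109: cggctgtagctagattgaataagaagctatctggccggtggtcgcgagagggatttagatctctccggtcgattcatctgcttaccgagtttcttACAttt
AtsnoR79: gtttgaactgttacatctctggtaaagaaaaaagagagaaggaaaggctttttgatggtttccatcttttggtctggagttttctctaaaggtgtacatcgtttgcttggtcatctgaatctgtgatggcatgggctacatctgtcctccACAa
AtsnoR79b: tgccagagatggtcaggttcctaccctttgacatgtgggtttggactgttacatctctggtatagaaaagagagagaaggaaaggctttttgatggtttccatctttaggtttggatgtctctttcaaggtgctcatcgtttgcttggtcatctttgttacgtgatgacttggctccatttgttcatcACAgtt
AtsnoR5b: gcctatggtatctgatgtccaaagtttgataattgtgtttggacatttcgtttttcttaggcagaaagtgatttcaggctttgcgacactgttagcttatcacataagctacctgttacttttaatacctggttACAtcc

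AtU49-2 (chr2:2185022-2185087, minus strand) and AtU49-1 (chr2:7520507-7520579, plus strand) are near-copies with very different read numbers. Capitals mark ATGA near the 5′ end and CTGA near the 3′ end. The annotated loci of AtsnoR85 (chr1:29911424-29911447, minus strand) and AtsnoR96 (chr5:25290992-25291043, minus strand) are printed without capitals. Both are shorter than a sequencing read of 75 bases, as are AtU49-2 (66 bases), AtsnoR87 (45) and Ath-127bsnoR76 (66), and scaling by such a length limits the FPKM and the fold changes of these 5 genes.
AtU49-2: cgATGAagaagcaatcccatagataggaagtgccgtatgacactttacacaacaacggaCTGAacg
AtU49-1: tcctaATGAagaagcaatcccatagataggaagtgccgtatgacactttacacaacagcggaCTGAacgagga
AtsnoR85: gtgcattcaaaagcccttacatgt
AtsnoR96: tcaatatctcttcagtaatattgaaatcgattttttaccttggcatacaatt

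The first question was how much of each library came from snoRNA genes. Members took 0.692% and 0.324% of the reads in RIP (exact Clopper-Pearson 95% intervals 0.679 to 0.705% and 0.313 to 0.336%). In Mock the share was 4.67% and 3.39% (4.58 to 4.76% and 3.30 to 3.48%), and in Input it was 0.0186% and 0.0195% (0.0181 to 0.0191% and 0.0189 to 0.020%). The groups did not overlap, with Mock highest and Input lowest. For 2 libraries against 2, the smallest two-sided p that exact permutation allows is 0.33, which each pair of groups reached. The intervals cover counting error only, since reads without molecular identifiers can be copies of 1 molecule.

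U3 made up most of the snoRNA reads in the pull-downs. U3B and U3D together took 0.358% and 0.191% of the reads in RIP, 3.67% and 2.66% in Mock, and 0.000135% and 0.000150% in Input. The other 203 members took 0.334% and 0.133% in RIP, 1.00% and 0.729% in Mock, and 0.0185% and 0.0193% in Input. Without U3, the order of the groups was thus the same. The RIP libraries differed by more than the sampling intervals of either, with RIP 1 higher for both sets.

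**Figure D1:**
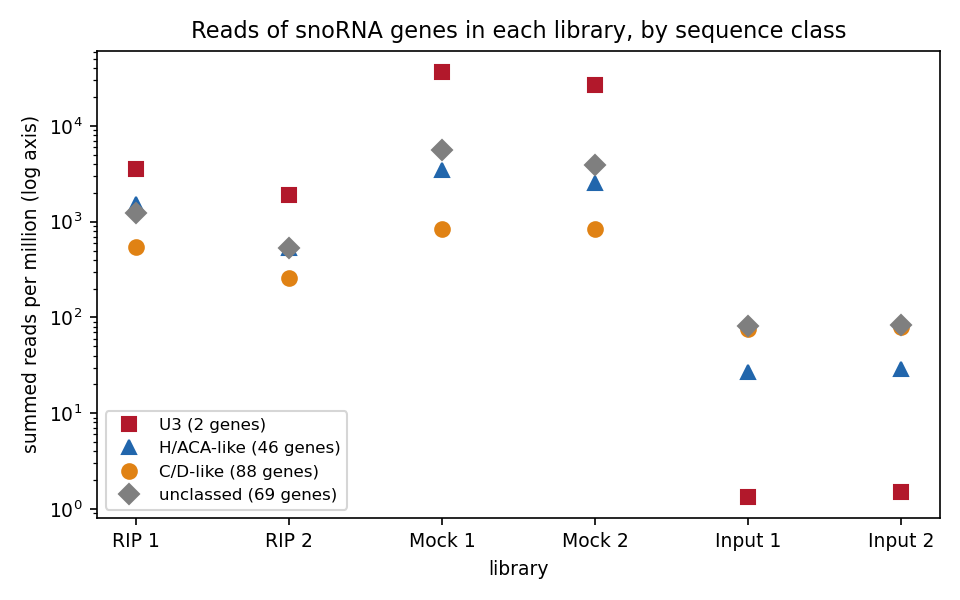
Summed CPM of the U3 (2 genes), H/ACA-like (46), C/D-like (88) and unclassed (69) snoRNA genes in each of the 6 libraries, on a log axis. Each symbol is 1 library, and every class is lowest in the Input libraries, while U3 has the highest sum in RIP and Mock and the lowest in Input.

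The classes moved unequally between lysate and pull-down. The 46 H/ACA-like genes summed to 1544 and 537 CPM in RIP, 3491 and 2543 CPM in Mock, and 27.0 and 29.1 CPM in Input. The 88 C/D-like genes summed to 547 and 258 CPM in RIP, 849 and 850 CPM in Mock, and 75.9 and 80.3 CPM in Input. The mean sum in RIP was 37.1 times that in Input for H/ACA-like genes and 5.16 times for C/D-like genes. C/D-like genes had the larger sum in both Input libraries, and H/ACA-like genes had the larger sum in each of the 4 pull-down libraries. A few loci that overlap host exons gave much of the H/ACA-like sums. Of 691 reads in Mock 1, AtsnoR79b gave 185, AtsnoR109 135 and AtsnoR79 87. Of 2469 reads in RIP 1 they gave 329, 158 and 244. The median of mean CPM in RIP was 7.06 over H/ACA-like and 0 over C/D-like genes, and in Mock it was 0 for both.

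Most members had too few reads in the pull-downs to be measured well. Reads were found for 117 and 84 members in RIP, for 29 and 43 in Mock, and for 194 and 197 in Input. Of the 205, 172 reached 1 FPKM in at least 2 libraries and were tested with limma on log2(FPKM + 1), together with 19997 features in all. Among the tested members, 54 reached that level in Input libraries only and 8 in RIP libraries only. Such members could pass in 1 direction only, so the counts that follow describe the members and do not support an enrichment of the class.

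In RIP against Input, 20 members were higher and 33 were lower, by a log2 fold change beyond 2 and an adjusted p under 0.01 over all features. Among all features tested, 1.48% were higher and 5.78% were lower, and the median log2 fold change was 0.36 over the members and -0.52 over all features. The median of the members was -1.26 without RIP 1, 2.10 without RIP 2 and -0.55 with a pseudocount of 0.1, so its sign rests on single libraries and on the pseudocount. The 20 higher members are U3B and U3D, 5 C/D-like, 5 H/ACA-like and 8 unclassed genes. For all 20 both RIP libraries lay above both Input libraries in CPM. The count was 51 without RIP 2, 5 without Input 1 and 8 without Input 2, and limma-voom on recovered reads called 3.

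In Mock against Input, 20 members were also higher, and 45 were lower, where 0.715% of all features were higher and 41.0% lower. At their Input share 0 of the 45 would have given 3 reads in Mock, so these differences were not detectable at this depth, and limma-voom called 0 lower (0 at an unadjusted p under 0.05). The comparisons of RIP and of Mock share the Input libraries. In RIP against Mock, 25 members were higher and 5 lower, where 34.3% of all features were higher and 0.180% lower. With limma-voom on recovered reads the direction turned, with 0 higher (10 at an unadjusted p under 0.05) and 57 lower, and with only these groups in the limma model 0 were higher (33 at an unadjusted p under 0.05) and 0 lower (6). Over all features, the log2 fold change had a median of 2.13 in RIP against Mock and of -2.70 in Mock against Input, and over the members of 0.00 and -1.71. The Mock count was 31 without Mock 1, 9 without Input 1 and 8 without Input 2, and the RIP over Mock count was 39 without RIP 1 and 57 without RIP 2.

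U3B was higher in RIP than in Input and higher still in Mock. It had 2838 and 945 reads in RIP, 3554 and 2014 in Mock, and 27 and 27 in Input, although the Mock libraries are the shallowest. The log2 fold change was 9.57 ± 0.40 (SE) in RIP against Input (adjusted p = 0.00028) and 13.12 ± 0.40 in Mock against Input (adjusted p = 0.00012). In RIP against Mock it was -3.55 ± 0.40 (adjusted p = 0.0033). The groups did not overlap in CPM.

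U3D had 2889 and 922 reads in RIP, 3705 and 2092 in Mock, and 10 and 11 in Input. Its pull-down reads were thus close to those of U3B, as the shared sequence printed above allows. The log2 fold change was 10.75 ± 0.40 in RIP against Input (adjusted p = 0.00021) and -3.61 ± 0.40 in RIP against Mock (adjusted p = 0.0032). In mean CPM, U3D stood 11.7 times and U3B 11.3 times higher in Mock than in RIP.

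Of the 20 members called higher in RIP than in Input, 11 had reads in Mock, and each of these had a higher mean CPM in Mock than in RIP. Besides the U3 genes they are AtU49-2, snoR158b, AtsnoR79, AtsnoR79b, AtsnoR85, AtsnoR109, AtsnoR96, AtsnoR6-3 and AtsnoR29-1. AtU49-2, U3B, U3D and snoR158b were called lower in RIP than in Mock, as was AT4G39363, which was not called in RIP against Input.

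AtU49-2, a short gene of a free cluster, had 111 and 101 CPM in RIP, 1925 and 1304 CPM in Mock, and 2.22 and 2.37 CPM in Input. The replicates were close in each group and the groups did not overlap. The log2 fold change was 5.49 ± 0.24 in RIP against Input (adjusted p = 0.00033) and -3.90 ± 0.24 in RIP against Mock (adjusted p = 0.00067). Its near-copy AtU49-1 matches it at 63 of 66 aligned positions (95.5%) and had 5 and 1 reads in RIP, none in Mock, and 6 and 3 in Input. AtU49-2 had 178 and 99 reads in RIP, 381 and 201 in Mock, and 61 and 60 in Input.

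snoR158b, which overlaps another gene on its strand in part, had 83.2 and 90.1 CPM in RIP, 1243 and 863 CPM in Mock, and 1.42 and 1.11 CPM in Input. It rose by a log2 fold change of 5.87 ± 0.33 in RIP against Input (adjusted p = 0.00074) and was lower in RIP than in Mock by -3.58 ± 0.33 (adjusted p = 0.0018). Its cluster neighbours AT2G35742 and At39BYb had no read in any RIP or Mock library, where under 3 RIP reads were expected from each at the Input share.

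In RIP, the H/ACA-like genes AtsnoR79b, AtsnoR82 and AtsnoR79 had the highest mean CPM after U3. The place of AtsnoR82 rests on RIP 1, with 272 CPM there and 5.12 CPM in RIP 2. AtsnoR109, which overlaps an exon of the lncRNA gene AT4G07070, had 98.8 and 68.6 CPM in RIP, 682 and 493 CPM in Mock, and 0.0364 and 0.158 CPM in Input. The Input values are 1 and 4 reads, so the fold change of 8.77 ± 0.48 on the log2 scale in RIP against Input (adjusted p = 0.00069) rests on a small base. RIP against Mock gave -2.82 ± 0.48 (adjusted p = 0.012), which did not pass.

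AtsnoR79 and AtsnoR79b overlap exons of AT-IE (AT1G31860), a gene of histidine biosynthesis. AtsnoR79b had 206 and 131 CPM in RIP, 935 and 409 CPM in Mock, and 0.436 and 0.514 CPM in Input. AtsnoR79 had 153 and 68.6 CPM in RIP, 440 and 240 CPM in Mock, and 0.182 and 0.198 CPM in Input. The log2 fold changes in RIP against Input were 7.94 ± 0.55 for AtsnoR79b (adjusted p = 0.0015) and 8.22 ± 0.58 for AtsnoR79 (adjusted p = 0.0016). Neither was called in RIP against Mock. The pair is 82.7% identical over 156 aligned positions, below the 95% at which genes were counted as near-identical copies.

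AtsnoR29-1, the C/D-like gene printed above, came closest to equal mean CPM in RIP and Mock among these 11 called genes. AtsnoR29-1 had 88.8 and 75.7 CPM in RIP, 111 and 97.3 CPM in Mock, and 0.145 and 0.198 CPM in Input. RIP against Mock gave a log2 difference of -0.34 ± 0.32 (adjusted p = 0.46). AtsnoR6-3, another C/D-like gene, had 90.05 and 25.6 CPM in RIP, 222 and 143 CPM in Mock, and 0.0727 and 0.237 CPM in Input.

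AtsnoR6-1 and AtsnoR6-2, relatives of AtsnoR6-3 from clusters elsewhere in the genome, had reads in every library too. AtsnoR6-1 had 26.3 and 17.4 CPM in RIP, 389 and 64.9 CPM in Mock, and 0.327 and 0.277 CPM in Input. AtsnoR6-2 had 46.9 and 11.3 CPM in RIP, 90.9 and 162 CPM in Mock, and 0.691 and 0.673 CPM in Input. Both were higher in Mock than in Input (8.57 and 7.25 on the log2 scale, adjusted p = 0.0026 for each), but were not called in RIP against Input. They match at 115 of 117 positions, while AtsnoR6-3 is 89.0% identical to AtsnoR6-1.

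AtsnoR85 and AtsnoR96, the very short loci printed above, had high values in both kinds of pull-down. AtsnoR85, of 24 annotated bases in an exon of the cation efflux gene AT1G79520, had 239 and 69 reads in RIP, 172 and 53 in Mock, and 13 and 5 in Input. AtsnoR96, of 52 bases in the lncRNA gene AT5G09125, had 96 and 24 reads in RIP, 36 and 9 in Mock, and none in Input. The hosts had the same numbers in Mock, 172 and 53 reads for AT1G79520 and 36 and 9 for AT5G09125, as did AT4G07070, the host of AtsnoR109, with 135 and 76. Reads counted at the member and at the host cannot be assigned there to the snoRNA rather than to the longer transcript.

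**Figure D2:**
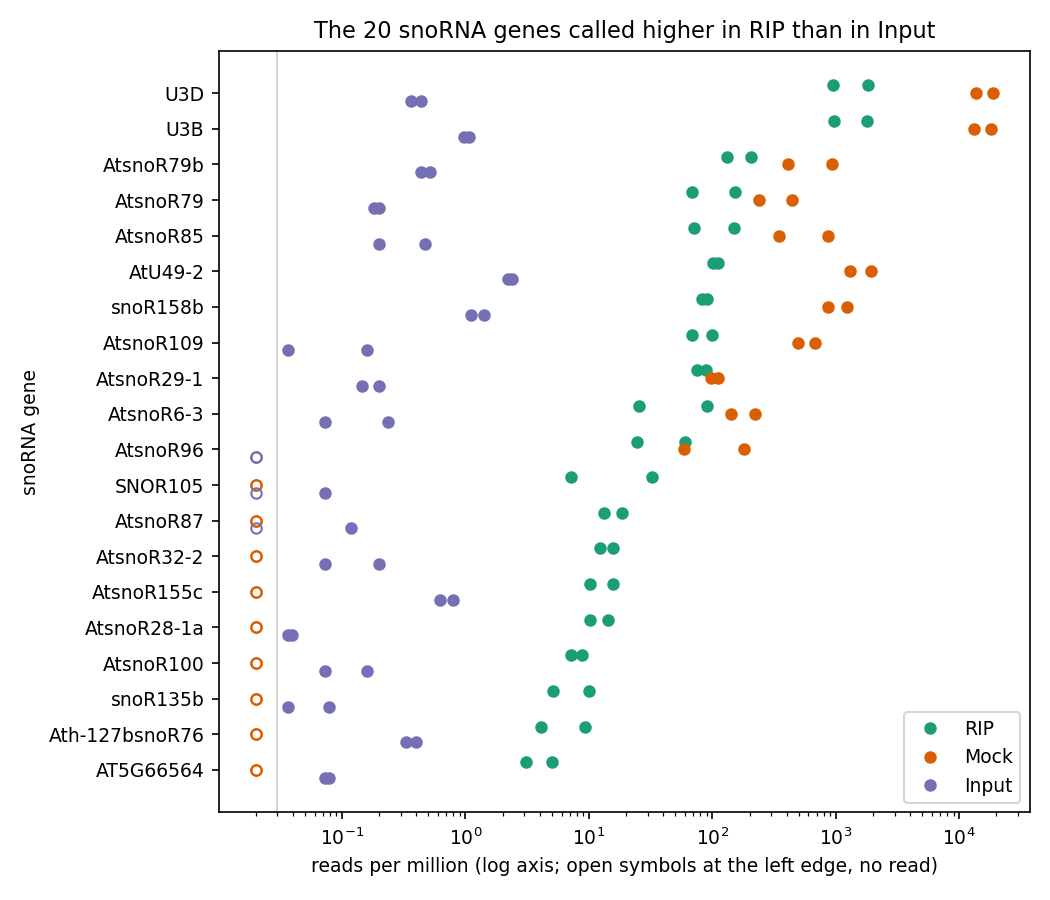
CPM on a log axis for the 20 snoRNA genes called higher in RIP than in Input, with 2 points for each of RIP, Mock and Input and open symbols at the left edge for libraries without a read. The upper 11 genes have Mock values mostly to the right of their RIP values, and the lower 9 have no Mock read.

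The other 9 members called higher in RIP than in Input had no read in either Mock library. All 9 were called higher in RIP than in Mock, a comparison that shares the RIP libraries, and all 9 lost this call with limma-voom and with only RIP and Mock in the model. They are SNOR105, AtsnoR28-1a and AT5G66564 (C/D-like), AtsnoR100 and snoR135b (H/ACA-like), and AtsnoR155c, Ath-127bsnoR76, AtsnoR87 and AtsnoR32-2 (unclassed). AtsnoR28-1a had 23 and 10 reads in RIP, none in Mock, and 1 and 1 in Input (log2 fold change 6.53 ± 0.24 against Input, adjusted p = 0.00019). SNOR105 had 52 and 7 reads in RIP, none in Mock, and 2 and 0 in Input (6.80 ± 0.83, adjusted p = 0.0090).

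AtsnoR87 overlaps an exon of the translation initiation factor gene EIF3G1. It had 21 and 18 reads in RIP, none in Mock, and 0 and 3 in Input (7.51 ± 0.71, adjusted p = 0.0042). AtsnoR155c had 25 and 10 reads in RIP, none in Mock, and 17 and 20 in Input (3.93 ± 0.31, adjusted p = 0.0023). AtsnoR100 had 14 and 7 reads in RIP, none in Mock, and 2 and 4 in Input (5.14 ± 0.26, adjusted p = 0.00055). It lies in an intron of AT5G08180, a gene annotated to the L7Ae protein family and held in the list of particle proteins as the NHP2 subunit of the H/ACA particle.

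The Mock libraries were too shallow to show that these 9 were absent from the control. A minimum of 3 reads, taken as the limit of detection, corresponds to 15.2 and 19.5 CPM in Mock. At their share of the RIP reads the 9 genes would have given between 1.5 reads (AT5G66564) and 8.06 reads (SNOR105) over both Mock libraries, and only 5 of the 9 would have reached 3 reads. None was above the limit of both Mock libraries in both RIP libraries. All 25 members called higher in RIP than in Mock had no Mock read, and for 10 of them at least 3 Mock reads were expected. AtsnoR89 was expected to give 22.4 Mock reads and was not found there, but its RIP reads numbered 155 and 9, and it was not called in RIP against Input (7.67 on the log2 scale).

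Among 23 members with reads in both RIP and both Mock libraries, 22 had a higher mean CPM in Mock, and for 18 both Mock libraries lay above both RIP libraries. Requiring a Mock read, worth 5.05 or 6.49 CPM, leaves out members that were low in Mock, so these counts are largely set by that condition and are no result about the members. The exception was AtsnoR82, an H/ACA-like gene with 435 and 5 reads in RIP, 41 and 9 in Mock, and 16 and 5 in Input. The spread between its RIP libraries was larger than any difference between the groups.

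**Figure D3:**
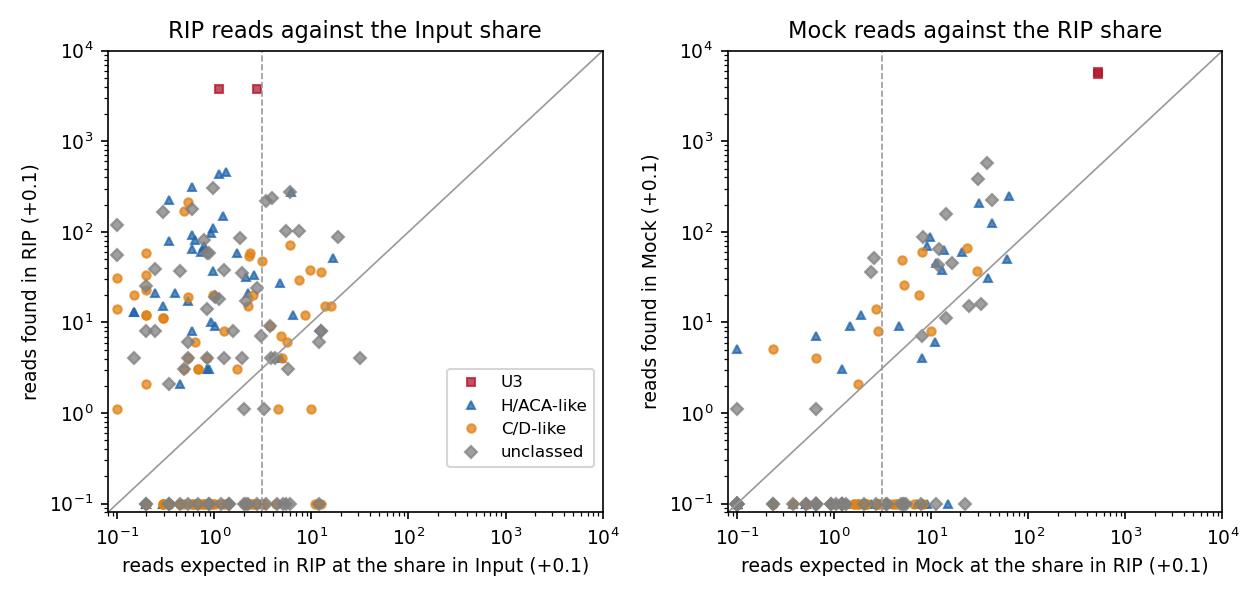
Reads found against reads expected, for every snoRNA member and summed over both libraries of a group, on log axes with 0.1 added. In the left panel RIP reads are set against those expected at the Input share, and in the right panel Mock reads are set against those expected at the RIP share, with a dashed line at 3 expected reads and a solid line where both are equal. Genes along the lower edge were not found, and most of them lie left of the dashed line.

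The 33 members called lower in RIP than in Input had no read in either RIP library. They are 19 C/D-like, 2 H/ACA-like and 12 unclassed genes. At their Input share 22 of the 33 would have given under 3 reads in RIP, so a difference was not detectable at this depth for these. The other 11 could have been seen. The count was 53 with a pseudocount of 0.1 and 10 with a pseudocount of 5, and limma-voom called 0 (4 at an unadjusted p under 0.05), whereas limma on log2(FPKM + 1) gave 54 at an unadjusted p under 0.05.

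The lowest fold changes were those of AtsnoR4a and snoR149. AtsnoR4a had no read in RIP or Mock and 121 and 133 reads in Input, where 12.4 RIP reads were expected (log2 fold change -5.99 ± 0.15, adjusted p = 9.1e-05). snoR149, of a free cluster on chromosome 2, had no read in RIP or Mock and 133 and 113 in Input, with 12.0 expected (-5.89 ± 0.13, adjusted p = 8.7e-05). AtU31a, next to AtsnoR4a on chromosome 1, had no read in RIP or Mock and 99 and 124 in Input, with 10.9 expected (-5.39 ± 0.19, adjusted p = 0.00017). AtU31b, of a related cluster inside AT1G29465, had no read in RIP or Mock and 124 and 116 in Input, with 11.7 expected (-5.69 ± 0.12, adjusted p = 8.7e-05). AtU31a and AtU31b match at 86 of 90 aligned positions, so their reads may have been divided between them. The same holds for AtsnoR4a and AtsnoR4b, which match at 75 of 77 positions.

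AtsnoR64 and AtsnoR7-2 were also without a read in the pull-downs. AtsnoR64 had 50 and 53 Input reads, and AtsnoR7-2 had 51 and 35. Their log2 fold changes in RIP against Input were -4.79 ± 0.12 for AtsnoR64 and -4.38 ± 0.17 for AtsnoR7-2.

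The members with the highest mean CPM in Input were mostly not those of the pull-downs. snoR162, in an exon of SUF4, a gene of flowering time control, had 4 and 0 reads in RIP, 0 and 1 in Mock, and 319 and 333 in Input. At its Input share 31.8 RIP reads were expected, yet the log2 difference of -4.33 ± 2.46 did not pass (adjusted p = 0.33). AtsnoR5b had 49 and 2 reads in RIP, none in Mock, and 168 and 171 in Input. AT1G74453 had 12 and 3 reads in RIP, none in Mock, and 173 and 153 in Input, and AT3G47348 had 15 and 0 reads in RIP, none in Mock, and 132 and 151 in Input.

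AtsnoR102, which stands alone, was the one gene of these 5 with reads in every library. It had 39.4 and 25.6 CPM in RIP, 85.9 and 305 CPM in Mock, and 6.95 and 7.60 CPM in Input. It was called higher in Mock than in Input (log2 fold change 4.45 ± 0.72, adjusted p = 0.0077), while RIP against Input gave 2.11 ± 0.72 (adjusted p = 0.13).

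Levels in the pull-downs followed annotated length more than those in Input. Over the 203 members without U3, Spearman's rho between length and mean CPM was 0.42 for RIP, 0.35 for Mock and 0.10 for Input, as a description over genes of the same libraries. The 71 members of 80 to 99 bases summed to 166 and 40.9 CPM in RIP, 0 and 58.4 CPM in Mock, and 55.1 and 54.2 CPM in Input. The 53 members of 130 bases or more summed to 1833 and 624 CPM in RIP, 3845 and 3185 CPM in Mock, and 62.0 and 65.8 CPM in Input. In Input these length bands were thus nearly equal, while in the pull-downs the longer genes had the larger sums. The 40 members of up to 79 bases, among them AtU49-2 and AtsnoR85, broke the order with sums of 530 and 246 CPM in RIP, 2976 and 1752 in Mock, and 34.2 and 35.8 in Input. The part that class and length each have in this pattern cannot be told apart. C/D-like genes are mostly short, and the letter rule itself requires at least 100 bases of H/ACA-like genes.

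**Figure D4:**
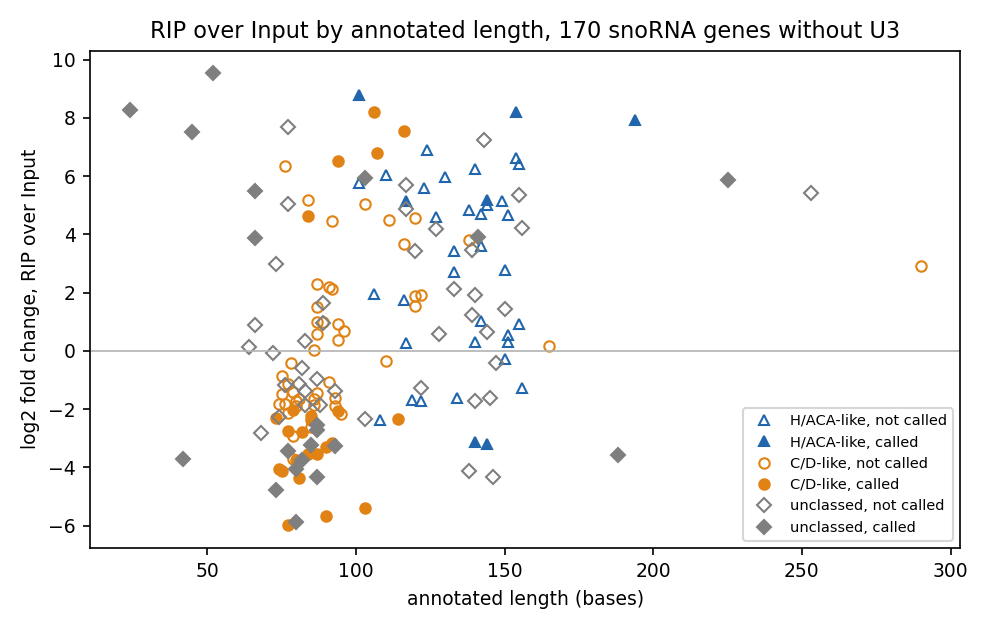
Log2 fold change of RIP over Input against annotated length in bases for the 170 tested snoRNA genes other than U3, with filled symbols for genes called in either direction. The 19 C/D-like genes called lower sit mostly at 70 to 100 bases. H/ACA-like genes, set at 100 bases or more by the letter rule, begin at 101 bases and lie mostly above 0.

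Loci inside a host gene were set against free-standing loci. Among 72 members inside a host, 9 were higher and 10 lower in RIP than in Input (63 tested, median 0.16). Among 131 free-standing members without U3, 9 were higher and 23 lower (107 tested, median 0.57). Over all features, 1.48% were higher and 5.78% lower, with a median of -0.52. In summed CPM, host loci had 1211 and 567 in RIP, 3506 and 2459 in Mock, and 54.5 and 56.1 in Input. Free-standing loci without U3 had 2126 and 763 CPM in RIP, 6497 and 4826 CPM in Mock, and 130 and 137 CPM in Input. The ratio of RIP to Input was 16.1 for host loci and 10.8 for free-standing loci. The RIP libraries differed by more than this, but both sets were read from the same libraries. That spread thus does not measure the difference between the sets, which was not tested. Among host loci the ratio was 22.2 for those overlapping a host exon and 8.28 for intronic ones. Only the exon-overlapping loci thus stood above the free-standing loci in this ratio.

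Within hosts, exon-overlapping and intronic loci differed in the sums. The 28 loci over host exons summed to 897 and 478 CPM in RIP, 3158 and 2108 CPM in Mock, and 29.6 and 32.3 CPM in Input. The 44 intronic loci summed to 314 and 89.0 CPM in RIP, 349 and 350 CPM in Mock, and 24.9 and 23.7 CPM in Input. Both groups were thus of like size in Input, and the sum over exon-overlapping loci was higher in each pull-down library. Few loci made up much of that sum. Of 625 reads in Mock 1, AtsnoR79b gave 185, AtsnoR85 172, AtsnoR109 135, AtsnoR79 87 and AtsnoR96 36. Of 1434 reads in RIP 1 they gave 329, 239, 158, 244 and 96. The median of mean CPM was 6.25 over exon-overlapping and 0.256 over intronic loci in RIP, and 0 for both in Mock. For AtsnoR85, AtsnoR96 and AtsnoR109 the Mock reads were those counted at the host. AtsnoR79b, by contrast, had 185 reads in Mock 1, where its host AT-IE had 135, so part of its reads were not counted at the host.

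The host genes of these loci number 46. Of 43 tested hosts, 3 were higher and 2 lower in RIP than in Input, with a median log2 fold change of -0.11, beside 1.48% higher, 5.78% lower and a median of -0.52 over all features. In Mock against Input 4 were higher and 12 lower, with a median of -2.17, beside 0.715% higher, 41.0% lower and a median of -2.70 over all features. In Input, an intronic member stood below its host in FPKM in 40 of 44 cases, whereas in RIP 14 of the 44 stood above it. Hosts of the intronic genes include ribosomal protein and translation factor genes, and FIB1 and FIB2, the fibrillarin genes, which hold U60.1F and U60.2F. U60.1F and U60.2F had no read in either RIP library. They had only 6 and 4 (U60.1F) and 7 and 8 (U60.2F) Input reads. Under 3 RIP reads were thus expected for each, 0.73 for U60.2F, so a difference was not detectable at this depth.

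Genes of 1 cluster had mostly similar numbers of reads in Input and very unequal ones in the pull-downs. Of 31 groups of at least 3 neighbouring members, with 113 members, the highest gene had a median of 1.82 times the mean Input CPM of the lowest. In 20 groups with at least 10 reads in RIP 1 and 3 in RIP 2, the gene with most reads in RIP 1 was noted and its share was read in the libraries that had not been used to choose it. Its median share of the group's reads was 91.3% in RIP 2, against 31.1% in Input. Some of these shares rest on few RIP 2 reads, such as 7 in the group of snoR86-2 and 11 in that of AtsnoR155c. The share in RIP 2 was above that of both Input libraries in 15 of the 20 groups, and in 13 the same gene had most reads in RIP 2. In 11 of the 14 groups with Mock reads that gene also held over 50% of them.

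**Figure D5:**
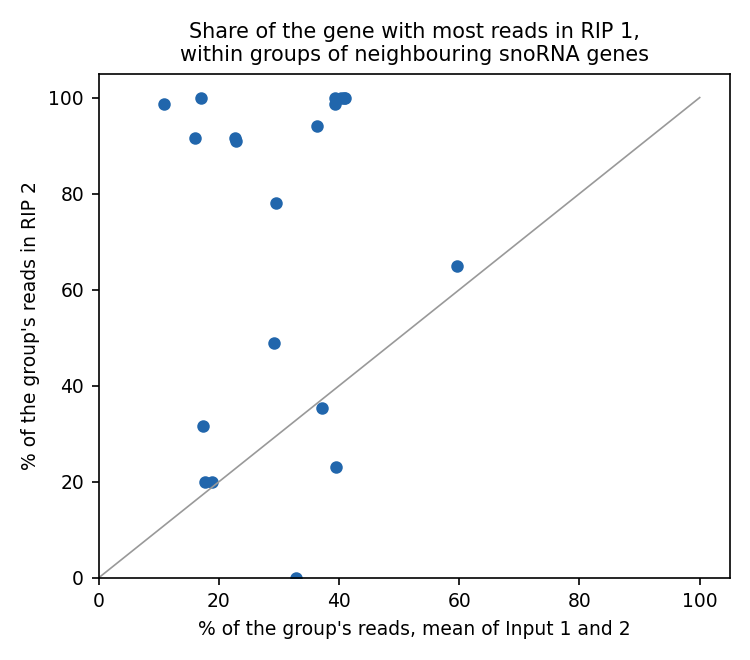
For 20 groups of neighbouring snoRNA genes, the share of the group's reads in RIP 2 (percent) against the mean share in the Input libraries, for the gene that had most reads in RIP 1. The line marks equal shares, and 15 of the 20 points have a higher share in RIP 2 than in either Input library.

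The cluster of AtsnoR6-1 is an example with few reads. AtsnoR6-1 held 100% of the group's reads in both RIP and both Mock libraries and 18.8% and 15.2% in Input. Its 4 neighbours snoR97-2, AT1G03502, AT1G03506 and AtsnoR134-1 had none in the pull-downs. No gene of the group had more than 11 and 15 Input reads, so under 3 RIP reads were expected from each neighbour and their absence was not detectable. snoR153 held 95.2% and 94.1% of its group's reads in RIP, 100% and 100% in Mock, and 40.5% and 32.0% in Input. AtsnoR155c held 100% and 90.9% in RIP and 19.8% and 26.0% in Input, inside an intron of the ribosomal protein gene AT1G04480. An opposite case is the cluster of AtsnoR80, whose share was 93.5% in RIP 1 and 20% in RIP 2.

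The bases before the genes were searched on both strands for letters of known plant promoter elements in 250 bases. AAACCCTA, the telo-box of translation and ribosome genes, was present before 29 of 58 free-standing genes that are the first member of their cluster or stand alone (50.0%). A snoRNA gene that is not a member can lie upstream of these, as AT4G02555 does of AtsnoR36. The window then holds bases from inside the cluster. The telo-box was present before 16 of 72 host loci (22.2%) and 4.48% of all 32674 nuclear genes in windows of the same length. GGCCCA, the site II element, was present before 22.4% of the free-standing genes, 2.78% of the host loci and 12.5% of all genes. The bases before a host locus are mostly host sequence.

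The upstream sequence element CCCACATCG was found before SNOR105, SNOR108 and AtsnoR146, which are all free-standing and single, and before 0.279% of all nuclear genes. It is printed from the element to the base before each locus, at chr1:10151775-10151870, minus strand (SNOR105), chr5:16598704-16598795, plus strand (SNOR108) and chr1:23701100-23701177, plus strand (AtsnoR146), with the element in capitals.
SNOR105: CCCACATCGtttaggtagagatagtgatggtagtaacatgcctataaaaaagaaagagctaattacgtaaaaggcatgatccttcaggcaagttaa
SNOR108: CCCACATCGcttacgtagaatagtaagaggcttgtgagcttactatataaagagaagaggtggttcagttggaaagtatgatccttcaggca
AtsnoR146: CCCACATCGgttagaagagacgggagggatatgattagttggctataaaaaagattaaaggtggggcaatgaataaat

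All 3 genes had reads in both RIP libraries, as did 74 of the 205 members. SNOR108 had 83 and 15 reads in RIP, 54 and 9 in Mock, and 8 and 9 in Input, and was called higher in Mock than in Input (log2 fold change 8.19, adjusted p = 0.0036). AtsnoR146 had 33 and 5 reads in RIP, none in Mock, and 14 and 10 in Input. With U3B and U3D, which hold the element inside the annotated locus, 5 members were found to carry it. Windows before later genes of a cluster and bases inside other loci were not counted, so more members may carry it. None of these 5 is among the 33 called lower out of 172 tested members. They are too few to relate the element to the calls.

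Genes for the proteins of the snoRNA particles were read from the same libraries. The list holds 20 genes for the box C/D core, the box H/ACA core, assembly factors, U3 proteins and nucleolins, and all 20 were tested. Some, such as AT4G22380 and AT5G08180, carry only the name of the L7Ae family in the annotation, and their place in a particle is that of the list. In RIP against Input 0 were higher by limma (0 at an unadjusted p under 0.05) and 1 was lower, AT4G22380 (3 at an unadjusted p under 0.05), with a median log2 fold change of -0.49, where 1.48% of all features were higher and 5.78% lower. In RIP against Mock 5 were higher and 0 lower (7 and 0 at an unadjusted p under 0.05), with a median of 2.09 beside 2.13 over all features, of which 34.3% were higher and 0.180% lower. FIB1 had 45.8 and 69.0 FPKM in RIP, 139 and 0 FPKM in Mock, and 72.7 and 71.9 FPKM in Input.

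Spliceosomal snRNA genes are the class most like snoRNA genes in kind. Of 42 tested, 23 were higher and 2 lower in RIP than in Input, with a median log2 fold change of 8.53, and 18 were higher in Mock than in Input. They took 13.1% and 21.3% of the reads in RIP, 9.95% and 10.5% in Mock, and 0.00263% and 0.00281% in Input. Of 312 tested lncRNA genes, 26 were higher and 20 lower in RIP than in Input (median 0.18). Over all features, 1.48% were higher and 5.78% lower in RIP than in Input (median -0.52), and 0.715% were higher in Mock than in Input. In the shares of reads, snRNA genes stood higher in RIP than in Mock, whereas snoRNA genes stood higher in Mock than in RIP.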

How the data were processed

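RNA of 6 libraries was sequenced as single-end reads of 75 bp after depletion of ribosomal RNA and without poly(A) selection. Alignment by the authors used STAR, and summarizeOverlaps (Union mode, strand-specific) assigned reads to genes. Tool versions are not given in the sources used here, and the submitters' processing notes name TAIR10. The deposited values are FPKM made by the authors, although the table is named for counts. FPKM multiplied by the merged exon length of TAIR10.1 gave whole multiples of 1 step for 99.6 to 99.96% of values above 0 (within 0.02 of a read), from which reads and library totals were recovered. A read over several genes can enter each of them.

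All 6 libraries were fitted with limma 3.58.1 (R 4.3.3) on log2(FPKM + 1), with an empirical Bayes trend, over the 19997 features that reached 1 FPKM in 2 libraries or more, and p-values were adjusted by Benjamini-Hochberg. Fold changes on this scale understate the change of low genes where reads were found. A library without a read enters as 0 FPKM whatever its depth, so a change against it can be overstated and its SE small. AtsnoR28-1a, for example, had 7.02 ± 0.24 in RIP against Mock, where only 4.51 Mock reads were expected at its RIP share. A call needed an adjusted p under 0.01 and a log2 fold change beyond 2 against Input or of at least 1 against Mock. The model was also run on simulated reads, drawn for all 6 libraries from the mean RIP profile. That run is no check on how the model handles the separate Input and Mock profiles. Near-identical copies (at least 95% over 70 bases, BLAST 2.17.0) were found for 41 members.

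Genes are named where called higher in RIP against Input, the 6 largest called lower, the 5 highest in each group, and U3; others named were chosen after their values were seen. Members and lists were chosen with earlier results of these data known. Alternatives covered pseudocount, filter, scaling, samples in the model, replicate block, limma-voom on recovered reads and each library left out. Sequences are from RefSeq TAIR10.1.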

Additional observations from a re-analysis of the deposited data

How the results depend on the processing

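In RIP against Input, the 20 members higher ranged from 5 to 51 when each library was left out and numbered 3 with limma-voom on recovered reads. The 33 lower numbered 53 with a pseudocount of 0.1, 10 with a pseudocount of 5 and 0 with limma-voom (4 at an unadjusted p under 0.05), and 34 to 46 with a library left out. Higher in RIP than in Mock were 25, from 18 to 57 with a library left out, 0 with only the pair of groups in the model (33 at an unadjusted p under 0.05) and 0 with limma-voom (10 at an unadjusted p under 0.05), which called 57 lower against 5. Higher in Mock than in Input were 20, from 8 to 31 with a library left out and 36 with limma-voom. The 45 lower there numbered 75 with a pseudocount of 0.1, 17 with 5, 71 with only the pair of groups, 23 with quantile normalization and 0 with limma-voom (0 at an unadjusted p under 0.05). The cause was not tested.

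With a replicate block, 14 members were higher and 29 lower in RIP than in Input, 21 were higher in RIP than in Mock, and 18 were higher and 40 lower in Mock than in Input. Deviations from the group means were almost uncorrelated between same-numbered libraries (0.0085, 0.012 and -0.0017 over features), so the numbers were not taken to pair them.

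In Mock against Input, limma-voom, which adds 0.5 read to a library without reads, reversed 11 named genes that had no Mock read. The log2 fold change became 1.99 for AtsnoR155c, 6.15 for SNOR105, 2.93 for Ath-127bsnoR76, 5.26 for snoR135b, 5.74 for AtsnoR87, 4.33 for AtsnoR32-2, 4.47 for AtsnoR100, 5.65 for AtsnoR28-1a, 4.91 for AT5G66564, 0.53 for AtsnoR64 and 0.83 for AtsnoR7-2. Over 1152 combinations of a named gene and an alternative, 986 kept their direction and call, 130 lost a call, 25 gained one and 11 are those reversed. Of the 46 members with at least 3 RIP reads expected at the Input share only 1 would also have given 3 in Mock, which is the limit that depth sets. Without members that overlap another gene on their strand, the snoRNA share was 0.557% and 0.258% in RIP, 4.19% and 3.06% in Mock, and 0.0125% and 0.0131% in Input. A cluster gap of 1000 bases gave the same 115 clustered and 18 single genes.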
